A study of Homo sapiens with 6 samples.

Results

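U-2OS cells transfected with a nonspecific siRNA were compared with untransfected U-2OS cells, 48 h after transfection by the methods of the study. U-2OS is a human osteosarcoma cell line, a permanent culture of malignant bone-forming cells. The comparison rests on 2 of the 6 arrays, and each gene is described by its log2 difference, nonspecific siRNA minus untransfected. A probe set, the group of short probes that reads 1 stretch of a transcript, was kept when its highest signal on the 6 arrays was above 100, or 6.64 on the log2 scale. This held for 16397 of 54675 probe sets, and the 14441 of them assigned to 1 gene gave 8878 genes. Where a gene had several kept probe sets, the one with the highest mean over the 6 arrays stands for it.

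The study asked which genes respond to knockdown of CDK11, a cyclin-dependent kinase, in osteosarcoma. U-2OS and a second human osteosarcoma line, KHOS, were left untransfected, transfected with 40 nM nonspecific siRNA or transfected with 40 nM CDK11 siRNA, and hybridised to Affymetrix U133 Plus 2.0 arrays. Each array was hybridised with the pooled RNA of 3 flasks, and every condition in a line had 1 array. The differences below therefore have no replicate error within U-2OS and no test, and where values are called higher or lower only these arrays are compared. The untransfected cells received neither the siRNA nor the transfection reagent, and effects of the reagent, of double-stranded RNA and of the siRNA sequence cannot be told apart. The sequence of the nonspecific siRNA was not given in the sources used here.

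A nonspecific siRNA is a short RNA duplex chosen to match no human transcript, and it serves as the control for the delivery procedure. Cationic lipid reagents carry such duplexes across the cell membrane through endosomes, from which a part reaches the cytoplasm and loads into Argonaute proteins. Duplex RNA in the endosome or the cytoplasm can be recognised by Toll-like receptors, RIG-I, MDA5 and PKR, and recognition is known to induce interferons and interferon-stimulated genes. A loaded guide strand can also lower transcripts that pair only with its seed, a short stretch near the 5′ end of the guide. Osteosarcoma cells are mesenchymal and make much collagen and other matrix, together with the proteases that remodel it.

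The labelled line was checked against marker genes. Among mesenchymal markers, 5 of 5 lay above the signal limit on the untransfected array and 4 of 5 on the nonspecific siRNA array, with summed log2 levels of 50.7 and 47.1. Of 10 osteoblast markers with a probe set, 3 were above the limit on the untransfected array and 2 on the nonspecific siRNA array, led by COL1A1 and SPARC, with summed levels of 54.9 and 51.7. None of 8 epithelial, 6 blood cell or 5 endothelial markers was above the limit on either array, and their highest levels were 5.89, 3.21 and 3.05. The brightest of 5 probe sets assigned to CDK11A and CDK11B, the targets of the other siRNA, read 8.97 in untransfected cells, 8.88 after nonspecific siRNA and 6.24 after CDK11 siRNA. All 6 arrays had a similar scale, with median log2 signals from 2.92 to 2.98 and between 24.8% and 25.9% of probe sets above the limit.

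Promoter sequences are given for 4 of the genes that were higher with nonspecific siRNA, chosen because their windows hold the short motifs that were searched. PRR9 had the largest difference of all genes, IL1A and CXCL8 encode inflammatory mediators, and ISG20 was the only listed interferon-stimulated gene past 1 log2 unit. Each sequence is the 250 bases before the most upstream annotated start, 5′ to 3′ on the strand of the gene, from RefSeq on GRCh38.p14. The windows are chr1:153217334-153217583 on the plus strand for PRR9, chr4:73740319-73740568 on the plus strand for CXCL8, chr2:112784494-112784743 on the minus strand for IL1A and chr15:88638766-88639015 on the plus strand for ISG20. Capitals mark 3 motifs searched on both strands: the AP-1 motif TGACTCA, bound by FOS and JUN dimers, an NF-kB-like motif GGNNNTTCC, and an ISRE-like motif, after the interferon-stimulated response element, of GAAA followed by any 2 bases and a further GAAA. N stands for any base, and no 2 matches overlap in these windows.
PRR9: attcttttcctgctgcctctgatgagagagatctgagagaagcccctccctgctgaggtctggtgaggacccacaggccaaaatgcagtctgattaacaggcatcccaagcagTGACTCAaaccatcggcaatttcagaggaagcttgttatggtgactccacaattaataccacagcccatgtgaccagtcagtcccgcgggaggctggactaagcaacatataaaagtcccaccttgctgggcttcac
CXCL8: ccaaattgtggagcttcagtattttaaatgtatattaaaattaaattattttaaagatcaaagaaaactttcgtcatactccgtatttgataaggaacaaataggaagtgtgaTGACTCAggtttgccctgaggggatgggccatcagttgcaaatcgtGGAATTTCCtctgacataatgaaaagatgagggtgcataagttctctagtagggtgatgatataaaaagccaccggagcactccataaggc
IL1A: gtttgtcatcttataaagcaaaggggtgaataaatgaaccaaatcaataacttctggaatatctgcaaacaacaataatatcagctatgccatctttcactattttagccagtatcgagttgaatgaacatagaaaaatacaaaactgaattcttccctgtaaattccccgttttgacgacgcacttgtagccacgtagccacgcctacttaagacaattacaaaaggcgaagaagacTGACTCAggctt
ISG20: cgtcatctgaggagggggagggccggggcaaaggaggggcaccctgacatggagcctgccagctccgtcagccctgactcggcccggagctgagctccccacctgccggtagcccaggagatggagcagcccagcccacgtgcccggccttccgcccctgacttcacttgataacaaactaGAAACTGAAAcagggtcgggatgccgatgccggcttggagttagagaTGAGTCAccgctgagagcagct

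In PRR9 and in CXCL8 the AP-1 motif began 137 bases before the start, and in IL1A it began 12 bases before it. The NF-kB-like motif of CXCL8 began 91 bases before the start. ISG20 held the ISRE-like motif 69 bases and the AP-1 motif 22 bases before its start.

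Over all 35116 promoter windows of this length, 4.20% held the AP-1 motif, 17.1% the NF-kB-like motif and 3.02% the ISRE-like motif. Of the kept genes, 7398 matched a window by symbol, as did 63 of the 95 genes higher and 112 of the 132 genes lower by more than 1 log2 unit. The AP-1 motif lay in a window of 12 of the 63 higher genes, or 19.0%, against 7 of the 112 lower genes, or 6.25%, and 315 of the 7398 kept genes, or 4.26%. Counted over windows, 18 of the 100 windows of higher genes held it, against 3.59% for lower and 3.14% for kept genes. The 12 were PRR9, INSC, IL1A, CXCL8, LYST, IL15RA, DCLK1, ISG20, SERPINB7, ATOSB, ECM1 and CLTRN. The NF-kB-like motif was found for 16 of the 63 higher genes, or 25.4%, for 28 of the 112 lower genes and for 25.9% of kept genes. The ISRE-like motif was found for 5 of 63 higher genes, or 7.94%, for 5 of 112 lower genes, or 4.46%, and for 3.47% of kept genes, while 24 of 37 interferon-stimulated genes with a window, or 64.9%, held it. A match is a description of letters only. Whether a protein binds there, or whether a match is a cause, was not tested, and these shares carry no test. MMP1, MMP3, VSTM1, LINC01260, SLAMF7 and IGFBP7 had no window in the table used.

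Most genes differed little between the arrays. The log2 difference was within 0.5 for 7719 of 8878 genes, or 86.95%, the median over all genes was -0.0053, the 5th and 95th percentiles were -0.62 and 0.52, and the robust SD, a spread over genes and not an error of replicates, was 0.256. Levels on both arrays had a Pearson correlation across genes of 0.987, where genes are not independent replicates. By more than 1 log2 unit, that is more than 2-fold, 95 genes were higher with nonspecific siRNA, 1.07% of all, and 132 were lower, 1.49%. Together these 227 genes were 2.56% of all. Only 15 genes were higher and 15 lower by more than 2 log2 units.

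**Figure D1:**
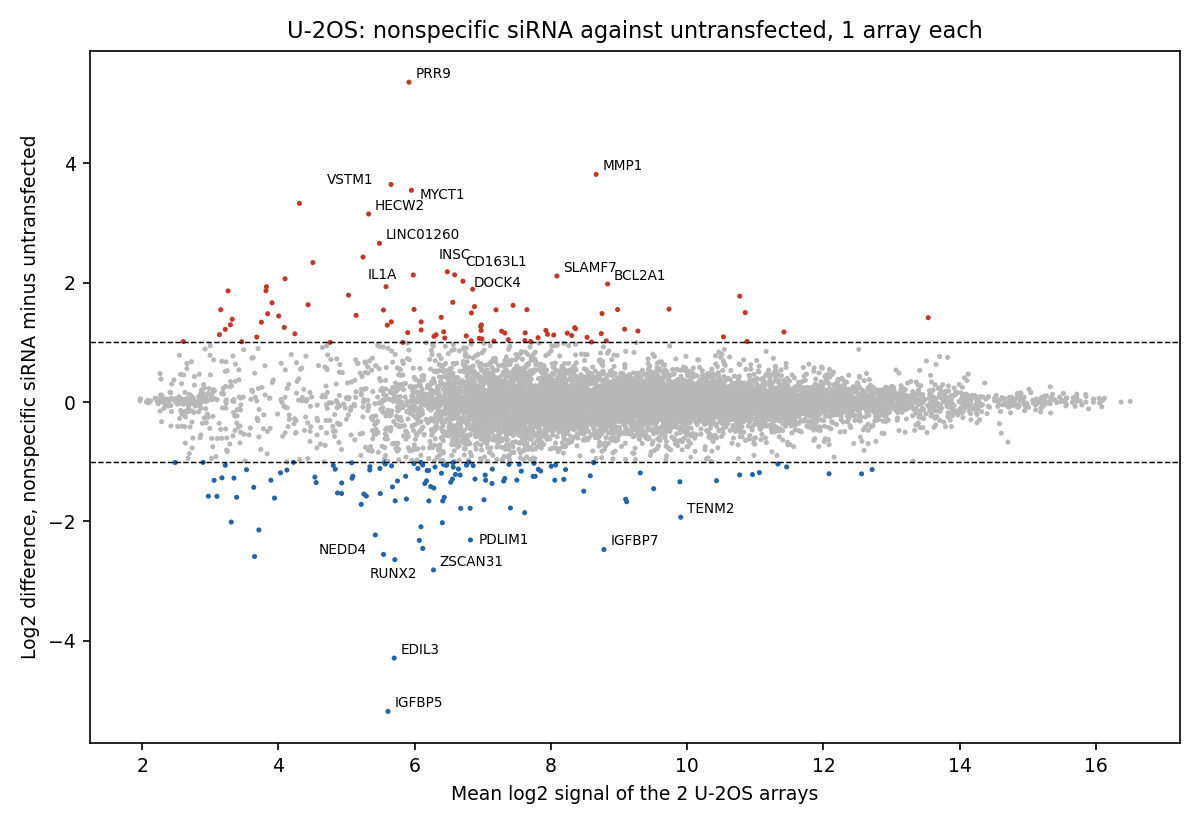
Log2 difference, nonspecific siRNA minus untransfected U-2OS, against the mean log2 signal of both arrays, with 1 point for each of 8878 genes. Red points are the 95 genes above 1, blue points the 132 genes below -1, dashed lines mark those limits, and names are given for most of the 12 highest and 12 lowest genes with a clear signal.

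Many of these genes had low signals. On the 2 arrays compared, 34 of the 95 higher and 36 of the 132 lower genes were above the signal limit on both, while 31 and 48 were above it on neither and passed the limit through another array of the series. A gene that passed the limit through 1 of these 2 arrays alone had to differ between them, so the counts overstate how often clearly expressed genes moved. Untransfected levels had a median of 5.84 among the higher genes, against 7.52 with nonspecific siRNA. Among the lower genes the medians were 7.05 and 5.62. Where several kept probe sets read a gene, all lay past the limit in 7 of 13 higher genes and 12 of 36 lower genes, and all had the same sign in 12 and 30.

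At the limit of 1 log2 unit, the 5 higher genes just inside ran from CLTRN (1.0016) to MIR31HG (1.0161) and the 5 just outside from MXD1 (0.988) to IL11 (0.997). Among lower genes the nearest were STAP2 (-1.0093) to IFFO2 (-1.0012) inside and IMPA2 (-0.9996) to ELAPOR2 (-0.9922) outside. The 5 probe sets with highest signals just above the signal limit had differences between -1.06 and -0.01, and the 5 just below it had differences between -0.35 and 0.76.

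The genes that were highest with nonspecific siRNA were led by PRR9 and MMP1. PRR9 encodes a proline-rich protein of the epidermal differentiation complex, a gene cluster of keratinising skin. Its log2 level was 3.23 in untransfected cells, 8.60 after nonspecific siRNA and 8.17 after CDK11 siRNA. On the untransfected array PRR9 was near background, where the median of all probe sets was 2.94, and on both transfected arrays it was above the signal limit. The log2 difference was 5.36, or 41.1-fold, and 3.60 when values under 5 were set to 5. MMP1 encodes interstitial collagenase, which cuts fibrillar collagen. Its level was 6.75 in untransfected cells, 10.57 after nonspecific siRNA and 10.14 after CDK11 siRNA, a difference of 3.82, or 14.1-fold. MMP1 was clear on both arrays compared.

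**Figure D2:**
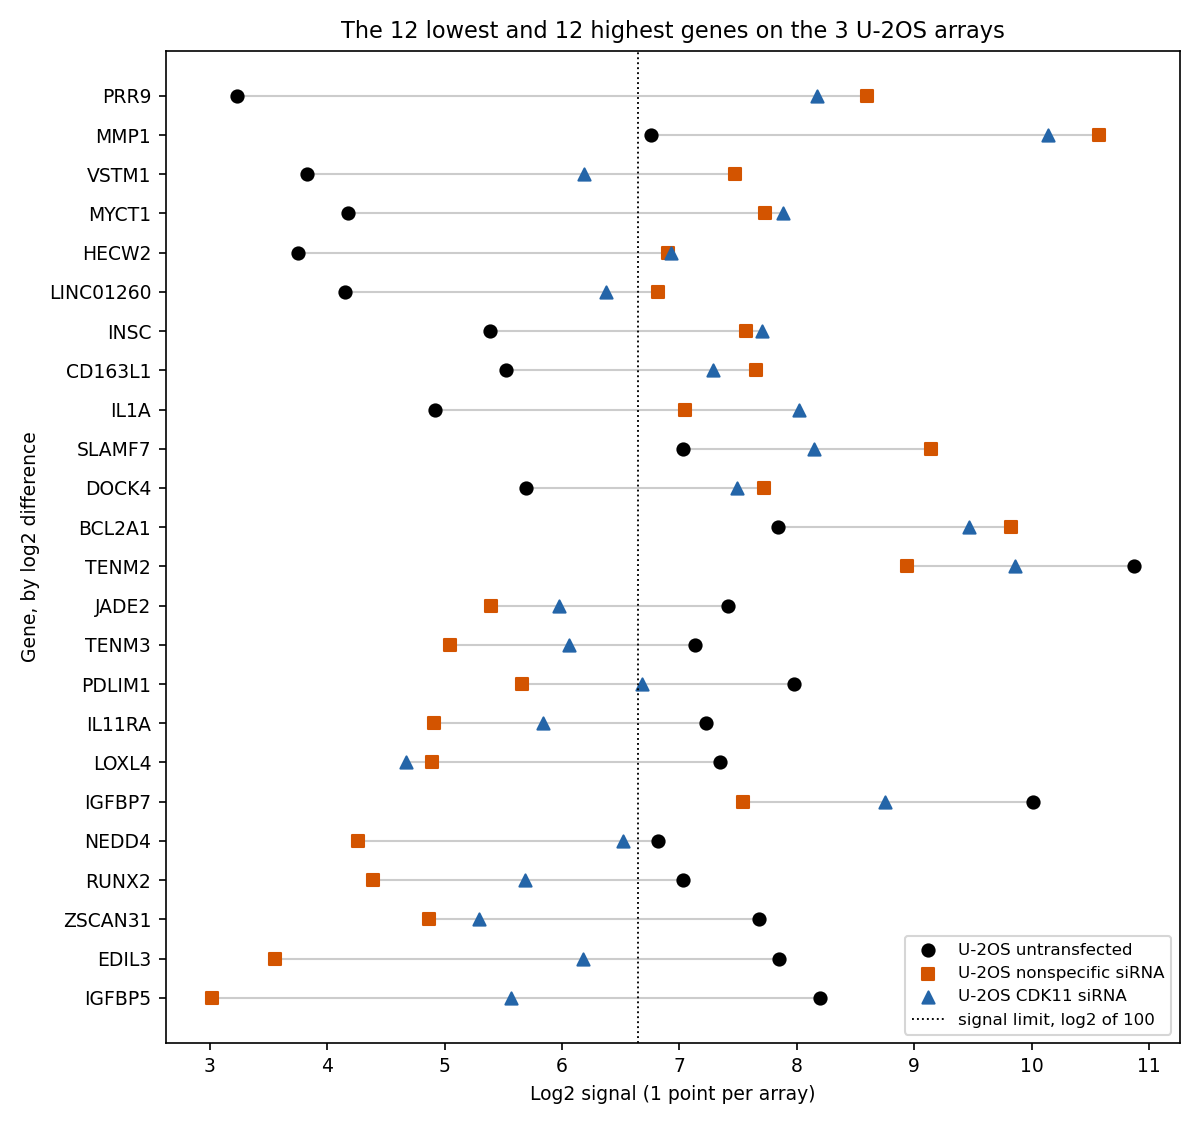
Log2 signals of the 12 highest and 12 lowest genes, by log2 difference, on the 3 U-2OS arrays, with 1 point per array and a dotted line at the signal limit. MMP1, SLAMF7, BCL2A1, IGFBP7 and TENM2 lie above the limit on both compared arrays, while PRR9, IGFBP5 and EDIL3 fall close to background on 1 of them.

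Further genes of this group were below the signal limit without transfection. VSTM1, an inhibitory receptor of myeloid cells, read 3.83 in untransfected cells, 7.48 after nonspecific siRNA and 6.19 after CDK11 siRNA. MYCT1, a MYC target gene, read 4.18, 7.73 and 7.89 in the same order, and HECW2, a ubiquitin ligase of the NEDD4 family, read 3.75, 6.90 and 6.93. For all 3 genes both transfected arrays read above the untransfected one, although VSTM1 after CDK11 siRNA stayed under the signal limit. The nonspecific siRNA differences were 3.65, 3.55 and 3.15. With values under 5 set to 5 the differences were 2.48, 2.73 and 1.90. LINC01260, a long noncoding RNA, differed by 2.66 (4.15 to 6.81), and by 1.81 with that floor. INSC, an adaptor that orients the mitotic spindle, differed by 2.19, from 5.39 to 7.57. CD163L1, a scavenger receptor, differed by 2.13, from 5.52 to 7.65. In KHOS none of these 6 genes was above the signal limit on the untransfected or the nonspecific siRNA array, and of their 6 differences there only that of HECW2, 0.78, was larger than 0.25 in either direction.

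SLAMF7, DOCK4, BCL2A1 and IL1A, which is described below with the inflammatory mediators, completed the 12 highest. SLAMF7, a surface receptor of lymphocytes and plasma cells, had a level of 7.03 in untransfected cells, 9.14 after nonspecific siRNA and 8.15 after CDK11 siRNA, a difference of 2.11. DOCK4, an activator of small GTPases, read 5.69, 7.72 and 7.49, a difference of 2.03, and was far brighter in KHOS, with 10.49 untransfected and 9.95 with nonspecific siRNA. BCL2A1, an inhibitor of apoptosis of the BCL2 family, read 7.84, 9.82 and 9.46, a difference of 1.98. In KHOS it went the other way, from 7.03 to 4.66.

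Among the genes that were lowest with nonspecific siRNA, secreted proteins of the matrix and of insulin-like growth factor (IGF) binding stood first. IGFBP5, a secreted IGF-binding protein, had a log2 level of 8.20 in untransfected cells, 3.02 after nonspecific siRNA and 5.57 after CDK11 siRNA. The difference was -5.18, or 36.3-fold lower, and -3.20 with values under 5 set to 5. Only 1 of its 6 probe sets was kept. EDIL3, a matrix protein that binds integrins, read 7.84, 3.55 and 6.17, a difference of -4.29, and -2.84 with the floor. For both genes the nonspecific siRNA array was the lowest of the 3 and near background. In KHOS EDIL3 stayed at 8.19 and 8.10, and IGFBP5 was near background on both arrays.

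RUNX2, the transcription factor that commits cells to the osteoblast lineage, read 7.03 in untransfected cells, 4.39 after nonspecific siRNA and 5.68 after CDK11 siRNA. Its difference was -2.64, by the 1 kept probe set of 6, and its KHOS levels of 9.51 and 9.60 were close to each other. NEDD4, a ubiquitin ligase, read 6.82, 4.27 and 6.52, a difference of -2.55. For NEDD4 the CDK11 siRNA array lay 0.30 under the untransfected one, while for RUNX2 it lay 1.35 under it. IGFBP7, a secreted protein related to the IGF-binding proteins, read 10.01, 7.54 and 8.75, and both its kept probe sets were lower, by -2.47 and -2.14. It was above the limit on all 3 arrays.

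The other 7 of the 12 lowest included matrix, membrane, cytoskeletal and nuclear proteins. ZSCAN31, a zinc finger protein, read 7.68 untransfected and 4.87 with nonspecific siRNA, a difference of -2.81. LOXL4, which crosslinks matrix collagen and elastin, read 7.34 and 4.89, a difference of -2.45, and 4.67 with CDK11 siRNA. IL11RA, the receptor of interleukin 11, differed by -2.32, and PDLIM1, an adaptor of actin stress fibres, by -2.31. TENM3 and TENM2 encode teneurins, large transmembrane proteins of cell contacts. TENM3 read 7.14 and 5.05, a difference of -2.09, and TENM2 read 10.87 and 8.94, a difference of -1.93. JADE2, a subunit of a histone acetyltransferase complex, differed by -2.02, from 7.42 to 5.39.

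The other transfected array of the line, CDK11 siRNA minus untransfected, shares the untransfected array, so that its values are only set side by side. In that comparison 271 genes, 3.05% of all, were past 1 log2 unit, with 124 higher (1.4%) and 147 lower (1.66%). The 95 genes higher with nonspecific siRNA had a median difference of 1.30, and with CDK11 siRNA their median was 1.25. Over the 132 lower genes the medians were -1.26 and -0.72.

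Interferon-stimulated genes mostly had differences near 0 in U-2OS. Of 47 listed genes 45 were kept, of which 1 was higher and 0 were lower by more than 1 log2 unit, beside 1.07% and 1.49% of all genes. Their median difference was 0.04, beside -0.0053 over all genes, with a range from -0.9987 to 1.14. ISG20, a 3′ to 5′ exonuclease that degrades viral RNA, read 7.38 in untransfected cells, 8.52 after nonspecific siRNA and 8.49 after CDK11 siRNA, and its 2 probe sets differed by 1.14 and 1.66. Well-known members had flat values. ISG15, a ubiquitin-like modifier, read 10.08 and 10.14, and IFITM3, which blocks viral entry, read 12.14 and 12.19. MX1, an antiviral GTPase, stayed near background at 2.37 and 2.31, and IFIT1, which binds viral RNA, read 4.73 and 4.68.

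In 28 of the 45 genes both U-2OS arrays were under the signal limit, and these genes were kept through KHOS. IFIT3 was one of them, with 5.40 untransfected and 6.39 with nonspecific siRNA, and SAMD9L read 4.62 and 3.62. The 2 kept probe sets of IFIT3 disagreed in sign, with -0.56 and 0.99, and the 3 of SAMD9L ran from -0.9987 to -0.02. The remaining 17 genes had a median of 0.0451 and ran from -0.23 to 1.14. In KHOS the same 45 genes had a median of 1.72, a range from 0.81 to 3.52, and 37 past 1 log2 unit, where 1.35% of all genes were higher by that much. The 17 genes bright in U-2OS had a KHOS median of 1.03. With 1 array on each side, U-2OS and KHOS could be set side by side but were not tested against each other.

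Genes that sense RNA and carry the interferon signal were also near 0. Of 24 listed genes 16 were kept, none was past 1 log2 unit, and the median was 0.03. RIGI, the cytoplasmic sensor of short RNA duplexes, read 7.12 in untransfected cells, 7.43 after nonspecific siRNA and 8.18 after CDK11 siRNA. The 3 RIGI probe sets differed by -0.21 to 0.32. TYK2, a kinase of the interferon receptor, differed by 0.24. In MHC class I presentation none of 17 kept genes was past the limit, and the median was 0.09. The gene farthest from 0 was PDIA3, a thiol isomerase of the peptide-loading complex, at -0.89, but its 3 probe sets ran from -0.89 to 0.42. PSMB9, an immunoproteasome subunit, differed by -0.43 in U-2OS and by 1.82 in KHOS.

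**Figure D3:**
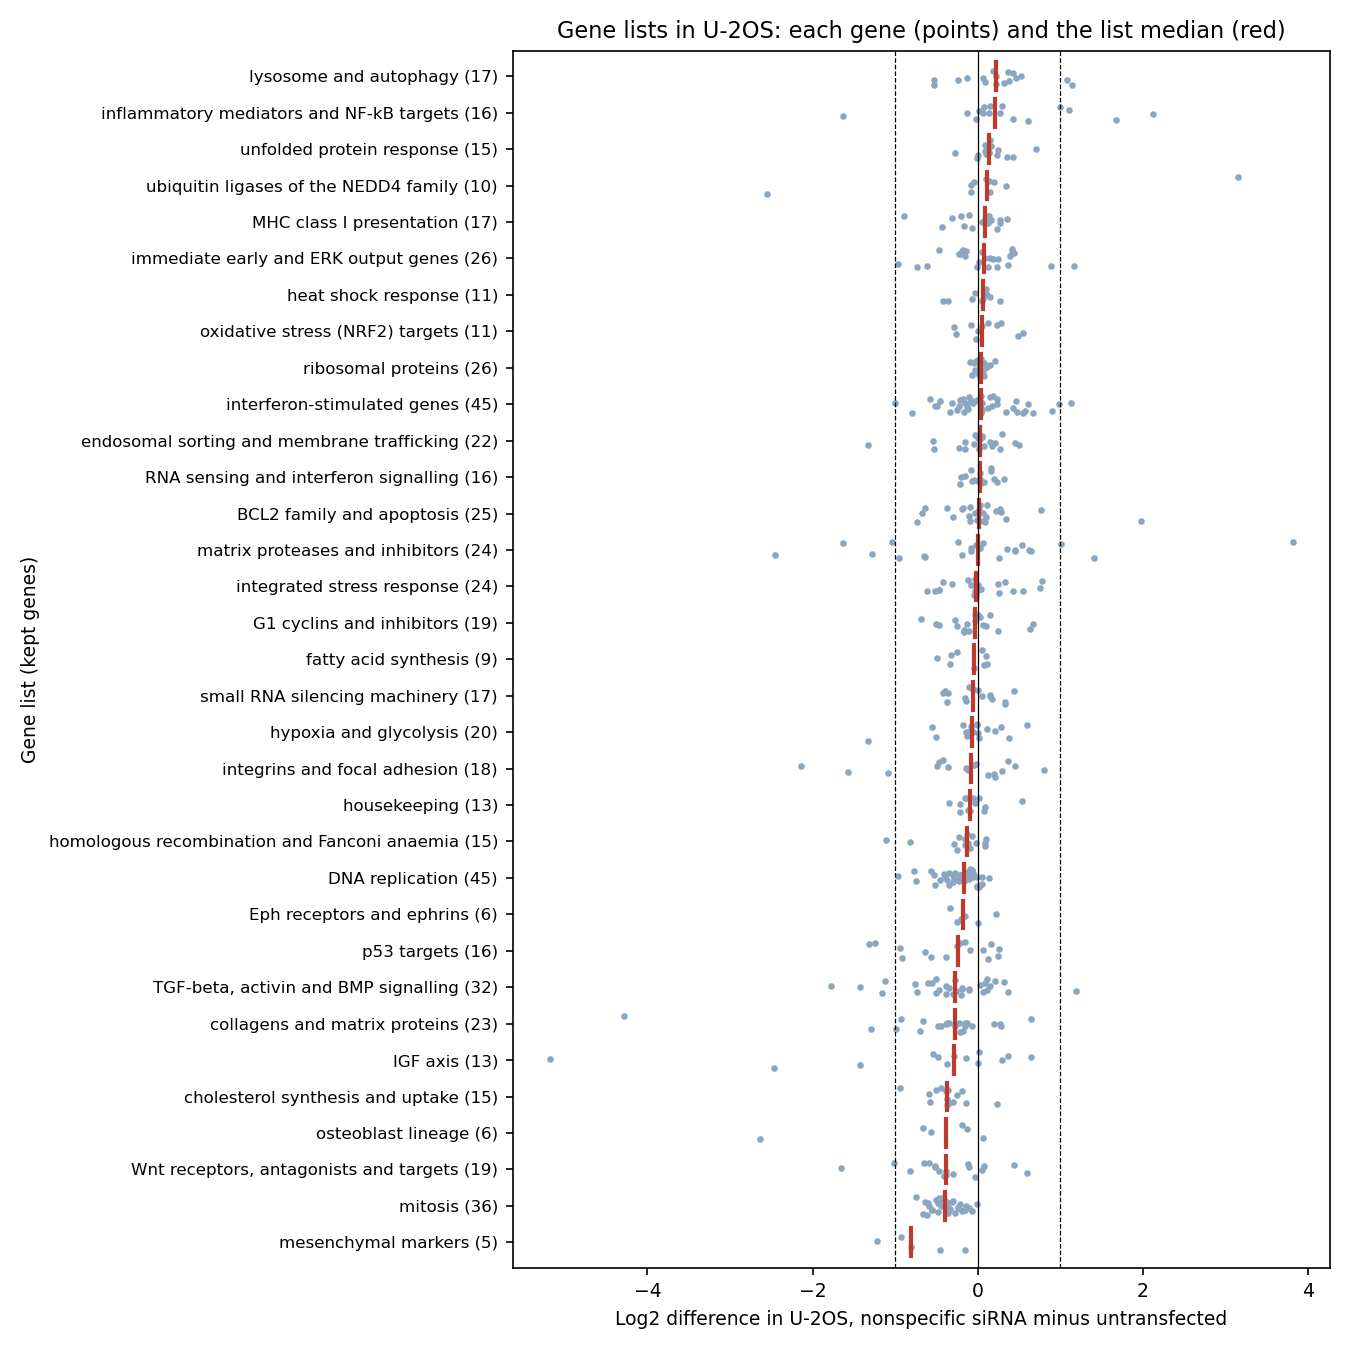
Log2 differences in U-2OS, nonspecific siRNA minus untransfected, for the kept genes of each list with 5 or more of them, with 1 point per gene, the list median as a red bar and dashed lines at -1 and 1. Lysosome genes have the highest median of these lists, 0.22, mesenchymal markers the lowest, -0.81, and all 36 mitosis genes lie below 0.

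Among inflammatory mediators and NF-kB targets, 16 of 30 listed genes were kept, of which 3 were higher and 1 was lower, beside 1.07% and 1.49% of all genes. Their median was 0.22. IL1A, the alarm cytokine interleukin 1 alpha, read 4.91 in untransfected cells, 7.04 after nonspecific siRNA and 8.02 after CDK11 siRNA, a difference of 2.13. CXCL8, the neutrophil chemokine interleukin 8, read 5.72, 7.40 and 7.68, a difference of 1.67. CCL20, a chemokine for lymphocytes and dendritic cells, read 5.73, 6.83 and 7.37, a difference of 1.10. All 3 were lowest on the untransfected array, where none was above the signal limit. PTX3, a secreted pattern recognition protein, went the other way, with 9.91 in untransfected cells, 8.28 after nonspecific siRNA and 9.83 after CDK11 siRNA. The PTX3 difference was -1.63. IL11, a cytokine of bone and fibroblasts, lay just under the limit at 0.997 (8.75 to 9.75).

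Immediate early genes, which growth factor and stress signals switch on through ERK and other kinases, had a median of 0.08 over 26 kept of 28 genes. FOS, a subunit of AP-1, was the only member past the limit, where 1.07% of all genes were higher and 1.49% lower. It read 5.31 in untransfected cells, 6.48 after nonspecific siRNA and 6.75 after CDK11 siRNA, a difference of 1.16. Of the other AP-1 subunits in the list, FOSL1 was at 0.41, JUN at 0.37, with 4 probe sets from 0.06 to 0.73, and JUNB at 0.18, while FOSL2 was at -0.96 and JUND at -0.73. The subunits thus had values on both sides of 0, and none of these 5 was past the limit. DUSP5, a phosphatase that ERK signalling induces, read 10.10 and 10.99, a difference of 0.88.

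Lists of stress responses had medians near 0. None of 24 genes of the integrated stress response was past the limit, and their median was -0.02. PPP1R15A, which restores translation by dephosphorylating eIF2alpha, differed by 0.78, and DDIT3, the stress transcription factor CHOP, by 0.76. The unfolded protein response had 13 of 15 genes above 0, where 4358 of all 8878 genes were. Its median was 0.14 and none of its genes was past the limit. DNAJB9, a cochaperone of the endoplasmic reticulum, was at 0.71 and SDF2L1, another protein of the endoplasmic reticulum, at 0.43. Heat shock genes had a median of 0.07 over 11 genes, with the chaperones CRYAB at -0.42 and HSPB1 at -0.36. Targets of NRF2, the oxidative stress factor, had a median of 0.05 over 11 genes, with SRXN1 at 0.55 and HMOX1, heme oxygenase, at 0.48.

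Lysosome and autophagy genes had the highest list median, 0.22, with 2 of 17 kept genes higher and 0 lower past the limit, where 1.07% of all genes were higher and 1.49% lower. NEU1, the lysosomal sialidase, read 8.16 in untransfected cells, 9.31 after nonspecific siRNA and 8.88 after CDK11 siRNA, a difference of 1.15. WIPI1, which marks early autophagosomes, read 7.99, 9.07 and 8.84, with 1.09 by its brighter probe set and 0.58 by the other. Genes of endosomal sorting had a median of 0.03 over 22 genes. RAB11FIP1, an effector of recycling endosomes, was their only member past the limit, with 7.97 untransfected, 6.64 with nonspecific siRNA and 8.08 after CDK11 siRNA, a difference of -1.32. The machinery of small RNA silencing had a median of -0.05 over 17 genes and none past the limit, with TNRC6A, a partner of Argonaute, at 0.44 and DDX6, an RNA helicase, at -0.42.

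Mitosis genes shared a direction without passing the limit. All 36 kept genes had differences below 0, as did 4518 of all 8878 genes, and they ran from -0.75 to -0.01, with a median of -0.40. KIF20A, a kinesin of cytokinesis, read 10.37 in untransfected cells, 9.62 after nonspecific siRNA and 9.54 after CDK11 siRNA. TOP2A, topoisomerase II alpha, read 12.34, 11.68 and 11.79. Both differences, -0.75 and -0.66, were within 1 log2 unit. The list median was -0.25 with CDK11 siRNA and -0.23 with nonspecific siRNA in KHOS. Of 45 DNA replication genes 41 were below 0, with a median of -0.16, and POLA1, the catalytic subunit of DNA polymerase alpha, was at -0.96 and LIG1, DNA ligase I, at -0.77. Homologous recombination and Fanconi anaemia genes had a median of -0.13 over 15 genes, with 1 lower, beside 1.49% of all genes. This was RAD54B, a recombination helicase, at -1.11 (6.04 to 4.93). RAD54B was under the signal limit on both arrays and was kept through KHOS. G1 cyclins and inhibitors had a median of -0.03 over 19 genes, with CCNG2 at -0.69 and CCNE1, cyclin E1, at 0.68. Genes of these lists are often regulated together and are not independent points.

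Targets of p53 had a median of -0.23 over 16 genes, of which 2 were lower and 0 higher, beside 1.49% and 1.07% of all genes. DDB2, a DNA damage recognition protein, read 6.83 untransfected and 5.51 with nonspecific siRNA, a difference of -1.32. GDF15, a secreted stress cytokine, read 8.39 and 7.15 in U-2OS, a difference of -1.24, and 5.22 and 6.54 in KHOS, a difference of 1.32. Genes of the BCL2 family and apoptosis had a median of 0.02 over 25 genes, with BCL2A1 as the only member past the limit.

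Cholesterol genes were below 0 in 14 of 15, where 4518 of all 8878 genes were, with a median of -0.37 and none past the limit. IDI1, an isomerase of the isoprenoid pathway, read 9.13 untransfected and 8.19 with nonspecific siRNA, a difference of -0.95, but its other probe set gave -0.25. INSIG1, the sterol-sensitive brake on the pathway, differed by -0.59. Fatty acid synthesis had a median of -0.04 over 9 genes, with SCD, stearoyl-CoA desaturase, at -0.49 and ACACA, acetyl-CoA carboxylase, at -0.33.

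Matrix genes held some of the largest differences of named lists. Collagens and matrix proteins were below 0 in 19 of 23 kept genes, where 4518 of all 8878 genes were. Their median was -0.27, and 2 were lower and 0 higher past the limit, beside 1.49% and 1.07% of all genes. Beside EDIL3, the lower one was COL5A1, a collagen that sets fibril width, with 7.53 in untransfected cells, 6.24 after nonspecific siRNA and 6.90 after CDK11 siRNA. Its kept probe sets gave -1.29 and -0.80. The bright members THBS1, FN1 and COL1A1 had values of -0.99, -0.92 and -0.66, and TNC, tenascin C, was at 0.65. The 3 kept COL1A1 probe sets differed in sign and ran from -1.11 to 0.34.

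The list of matrix proteases and inhibitors went both ways, with 3 higher and 4 lower of 24 genes, beside 1.07% and 1.49% of all genes. Its median was 0.00. The list also holds crosslinking enzymes, and LOXL4 and LOXL1, which are neither proteases nor inhibitors, were among the lower genes. MMP3, stromelysin 1, read 12.83 in untransfected cells, 14.24 after nonspecific siRNA and 14.17 after CDK11 siRNA, a difference of 1.41. ADAMTS6, a secreted metalloprotease, differed by 1.01. Together with MMP1 these were the higher genes, and all are metalloproteases. LOXL1, a crosslinking enzyme like LOXL4, read 7.83, 6.20 and 6.66, a difference of -1.64. PLAT, tissue plasminogen activator, differed by -1.28, and TIMP3, a metalloprotease inhibitor bound to matrix, by -1.04.

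Genes of cell adhesion had a median of -0.08 over 18 integrin and focal adhesion genes, with 3 lower past the limit, as 1.49% of all genes were. ITGB8, an integrin subunit that activates TGF-beta, read 6.08 and 4.50, a difference of -1.57. CAV1, the coat protein of caveolae, read 12.002 and 10.92, and its probe sets gave -1.09 and -1.06. ITGA4 gave -2.14 by its brightest probe set over the series, but the values of 4.78 and 2.64 were both low, other probe sets reached 0.23, and the difference was 0 with values under 5 set to 5. In the IGF axis IGFBP4 was likewise low on both arrays, at 4.35 and 2.92, and with IGFBP5 and IGFBP7 it made 3 lower genes of 13, beside 1.49% of all genes, with a list median of -0.29.

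Signalling by TGF-beta, activin and BMP, growth factors that direct bone formation and matrix synthesis, had a median of -0.27 over 32 genes, with 1 higher and 4 lower, beside 1.07% and 1.49% of all genes. Of the ligands, TGFB2 read 8.29 in untransfected cells, 6.52 after nonspecific siRNA and 7.39 after CDK11 siRNA, a difference of -1.77. BMP2 read 6.68, 7.87 and 7.94, and its probe sets gave 1.19 and 1.65. The ligands thus lay on opposite sides. Of the receptors BMPR2 differed by -1.13. SMAD6, an inhibitor inside the cell, differed by -1.42 (6.38 to 4.96), with both arrays under the signal limit. ID2, a target of BMP signalling, differed by -1.16 (8.14 to 6.99).

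Wnt receptors, antagonists and targets had a median of -0.39 over 19 genes, with 2 lower and 0 higher, beside 1.49% and 1.07% of all genes. RNF43, a ubiquitin ligase that removes Wnt receptors, read 6.54 in untransfected cells, 4.89 after nonspecific siRNA and 6.71 after CDK11 siRNA, a difference of -1.65. FZD7, a Wnt receptor, read 7.07, 6.05 and 5.47, a difference of -1.02. For RNF43 the nonspecific siRNA array was the lowest, and both compared arrays were under the signal limit. For FZD7 the CDK11 siRNA array was the lowest. Eph receptors and ephrins had 6 kept genes and a median of -0.18, with EFNA5 at -0.33 and EPHB1 at -0.25. Both U-2OS arrays were under the signal limit for 5 of the 6, EFNA5 and EPHB1 among them. With the signal limit on the brighter of the 2 arrays the median was 0.22, which was also the highest value in the list.

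NEDD4-family ubiquitin ligases had a median of 0.12 over 10 genes, with HECW2 higher and NEDD4 lower, beside 1.07% and 1.49% of all genes. Of 20 kept hypoxia and glycolysis genes, with a median of -0.07, only LOX, a collagen crosslinking enzyme, was past the limit, with 6.41 in untransfected cells, 5.09 after nonspecific siRNA and 6.64 after CDK11 siRNA. LOX probe sets gave -1.32 and -1.92. In the osteoblast lineage list only RUNX2 of 6 kept genes was past the limit, and the median was -0.38, or 0.02 with no signal limit, while the 4 kept osteoblast markers had -0.61. Among mesenchymal markers S100A4, a calcium-binding protein, differed by -1.22 (7.28 to 6.06), and the 5 had a median of -0.81. The 2 kept epithelial markers, EPCAM and CLDN7, were under the limit in U-2OS, with -0.74 and -0.50. The 26 ribosomal protein genes ran from -0.10 to 0.22 with a median of 0.04, led by RPL6 at 0.22 with RPL38 at 0.15. The 3 kept RPL38 probe sets ran from 0.15, for the brightest, to 0.99. The 13 housekeeping genes ran from -0.35 for TFRC to 0.54 for POLR2A, with a median of -0.09.

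KHOS gives a comparison with arrays of its own. With nonspecific siRNA 120 KHOS genes were higher, 1.35% of all, and 61 were lower, 0.687%, than untransfected. Across 8878 genes the differences of both lines correlated with Pearson's r of 0.166 and Spearman's rho of 0.199, and over the 7182 genes above the limit in both lines 0.248 and 0.245, as a description over genes that share arrays. Of the 64 higher U-2OS genes with a U-2OS signal above the limit, 23, or 35.94%, were also above it in KHOS, as were 48 of 84 lower genes, or 57.14%, beside 90.36% of all such genes. The U-2OS genes past the limit had KHOS medians of -0.0188 for the higher and -0.0795 for the lower.

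**Figure D4:**
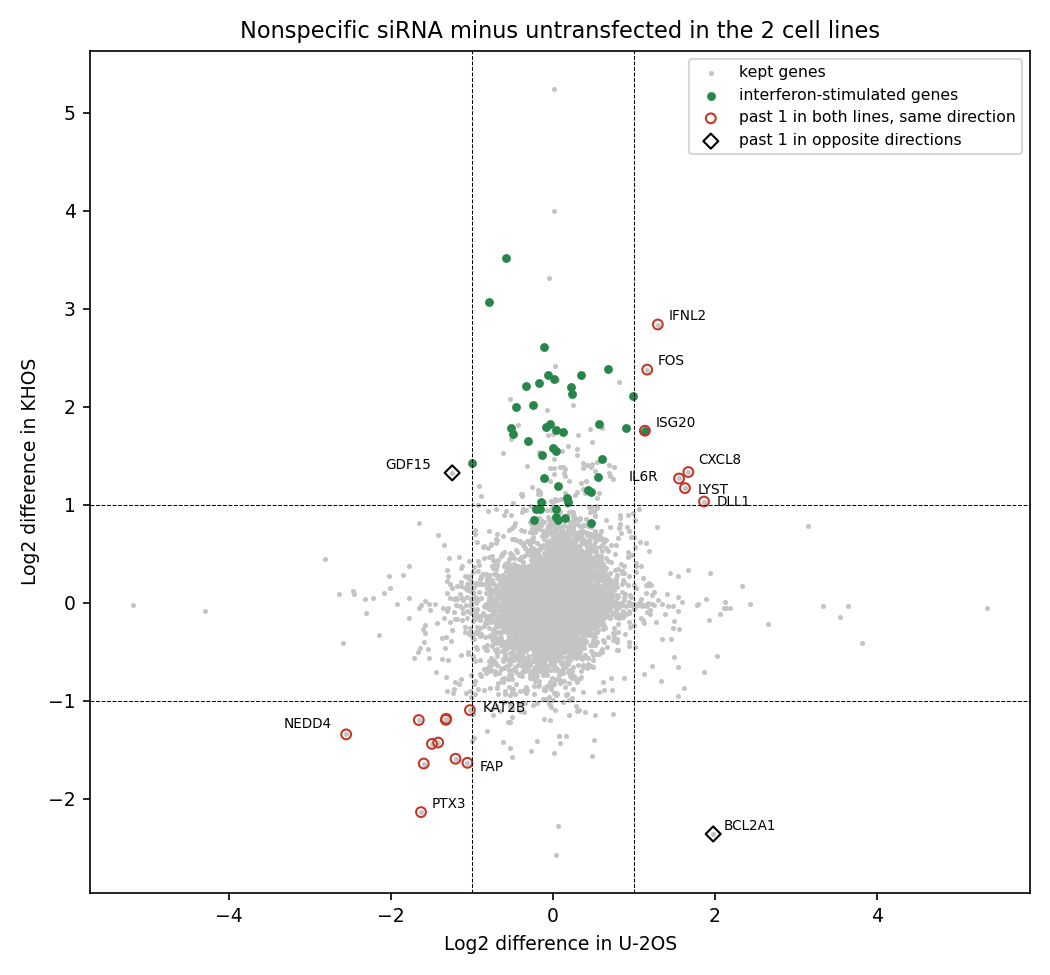
Log2 difference, nonspecific siRNA minus untransfected, in U-2OS on the x axis and in KHOS on the y axis, with 1 point per kept gene and dashed lines at -1 and 1. The 45 interferon-stimulated genes in green spread upward along the KHOS axis around 0 in U-2OS, red circles mark the 7 and 11 genes past the limits in both lines, and diamonds mark GDF15 and BCL2A1.

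Past 1 log2 unit in both lines were 7 higher genes, which is 7.37% of the U-2OS list and 5.83% of the KHOS list. They were ISG20, FOS, IFNL2, IL6R, LYST, CXCL8 and DLL1. IL6R, the receptor of interleukin 6, was above the limit on all 3 U-2OS arrays, with 8.95 in untransfected cells, 10.51 after nonspecific siRNA and 10.85 after CDK11 siRNA. IFNL2, an interferon of the lambda family whose near-identical gene copy the probes may also read, stayed low in U-2OS, with 2.65 and 3.94, while KHOS had 4.14 and 6.98. DLL1, a Notch ligand, was low in U-2OS as well, with 2.88 and 4.75. LYST, with 3.62 and 5.25, and FOS were also under the signal limit on both compared U-2OS arrays. The medians of the 7 were 1.56 in U-2OS and 1.33 in KHOS, and 1.44 for CDK11 siRNA in U-2OS.

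Lower in both lines were 11 genes, 8.33% of the U-2OS list and 18.03% of the KHOS list, namely NEDD4, C5orf46, PTX3, NOX4, ZNF367, DSC2, LOX, DESI2, SMIM15, FAP and KAT2B. ZNF367, a zinc finger protein, read 9.23 in untransfected cells, 7.73 after nonspecific siRNA and 9.51 after CDK11 siRNA in U-2OS, and 8.95, 7.504 and 9.21 in KHOS. SMIM15, a small membrane protein, read 13.16, 11.96 and 13.25 in U-2OS, and DESI2, a deubiquitinating and deSUMOylating peptidase, read 11.09, 9.77 and 11.09. In each of these sets only the nonspecific siRNA array was low. C5orf46, a small secreted protein, read 7.24, 5.58 and 7.11 in U-2OS and was under the limit in KHOS. NOX4, an oxidase that makes hydrogen peroxide, was near background in U-2OS and read 2.59 with nonspecific and 2.52 with CDK11 siRNA. The medians of the 11 were -1.42 in U-2OS and -1.43 in KHOS, while CDK11 siRNA in U-2OS gave -0.08.

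**Figure D5:**
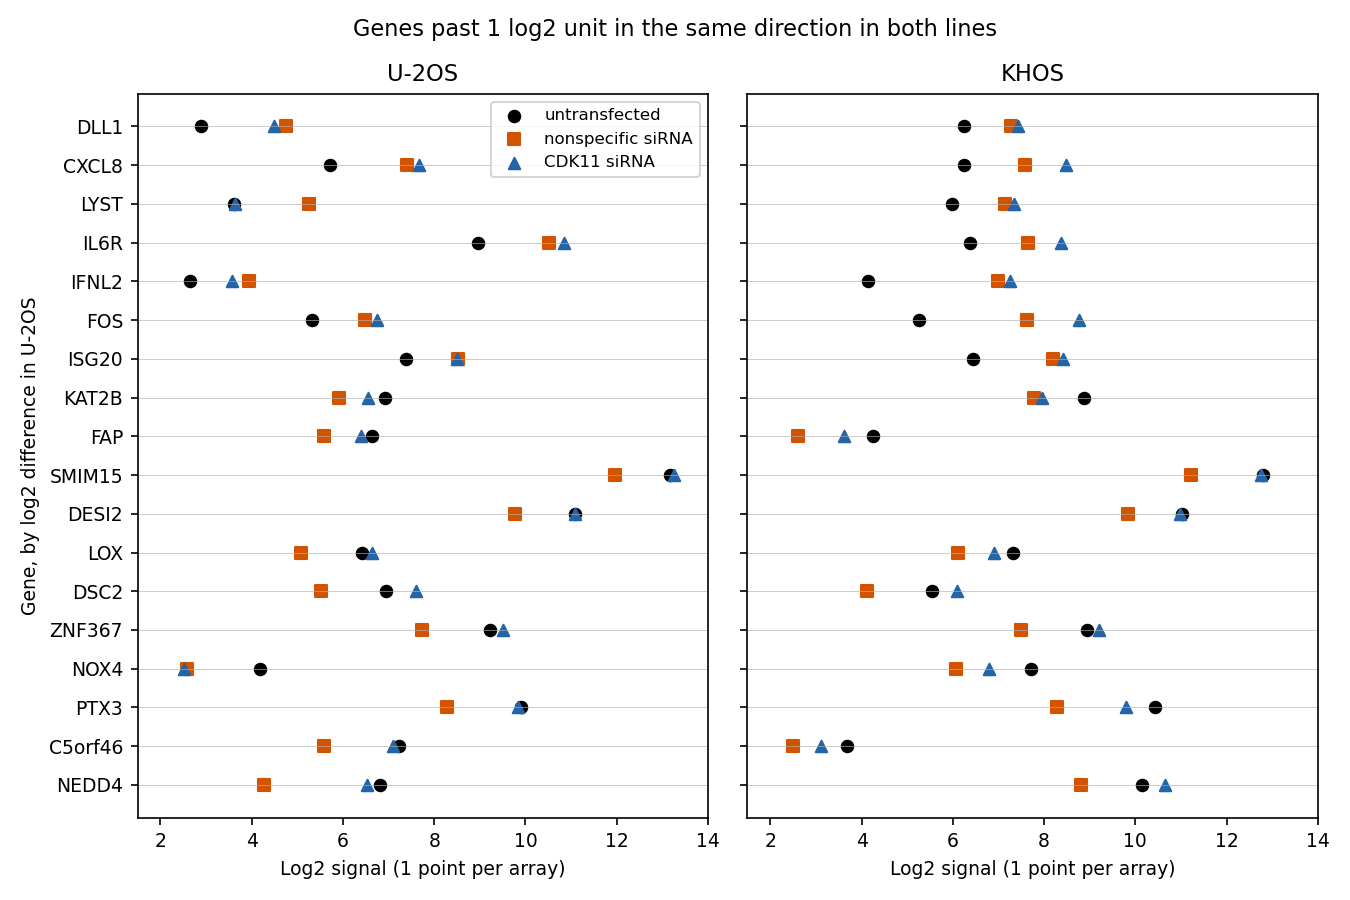
Log2 signals of the 18 genes past 1 log2 unit in the same direction in both lines, for U-2OS at left and KHOS at right, with 1 point per array. For every lower gene except NOX4 the nonspecific siRNA point stands below both other points in each line.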

How the data were processed

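RNA of U-2OS and KHOS cells, of 3 pooled flasks per array, was measured on Affymetrix U133 Plus 2.0 arrays, 1 for each of 3 conditions per line. The authors deposited log2 values of 54675 probe sets made with gcrma in R, which adjusts the background by probe sequence, normalizes by quantiles and summarises probe sets. Its version was not given in the sources used here. Quantile normalization removes any shift common to all genes, and with 1 array per condition the number of arrays limits the precision.

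From these values differences between arrays were taken without a test. A signal limit of 100 on the highest of the 6 arrays stood in for the filter of the methods, whose present calls were not used. Probe sets were named from the platform annotation, with symbols updated through RefSeq, assembly GRCh38.p14. A single gene symbol was given for 41097 probe sets, 41043 of which found their gene ID in RefSeq, while 1801 carried several symbols and 11777 carried none. Kept were 14441, 757 and 1199 of these, and no gene was named from the last 1956, of which 21 were higher and 21 lower past the limit. Some listed genes had no probe set named for 1 gene here.

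Named were the 12 highest and 12 lowest genes whose brighter array of the 2 was above the limit, up to 4 members of each gene list past 1 log2 unit or else up to 2 farthest from 0, and the 5 highest and 5 lowest of the genes past it in both lines. Genes named beyond this rule were chosen after their values were seen. The comparison, the gene lists and the rules were chosen with earlier results of these data known, so that no list is independent support. There were 37 lists of 843 genes, and the blood cell and endothelial lists had no kept gene. Alternatives covered the signal limit, a floor for low values, the rule for several probe sets, centring, a lowess trend and the fold limit. The counting was tried on simulated arrays with changes well past the limit and the same noise at every signal level. This checks the code and gives no error rate for low signals. The work was done in Python 3.11.15 with numpy 2.4.6, pandas 2.3.3, statsmodels 0.14.6, scipy 1.17.1 and matplotlib 3.10.9.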

Additional observations from a re-analysis of the deposited data

Results flagged for a closer look

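BCL2A1 and GDF15 were past 1 log2 unit in opposite directions in U-2OS and KHOS. The log2 difference of BCL2A1, nonspecific siRNA minus untransfected, was 1.98 in U-2OS and -2.36 in KHOS. That of GDF15 was -1.24 in U-2OS and 1.32 in KHOS. Each line had 1 array per condition, so that this contrast of U-2OS with KHOS was not tested. BCL2A1 was read by 1 probe set and GDF15 by 1 kept probe set of 3.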

How the results depend on the processing

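The 95 higher and 132 lower genes became 190 and 254 with no signal limit, 63 and 67 beyond 3 SD, which lay at 1.17 and -1.25, and 15 and 15 beyond 2 log2 units. With a signal limit of 200 there were 63 higher genes and 88 lower, and with the limit on the brighter of the 2 arrays 64 and 86. Higher genes were 41.85% of those past the limit, against 51.13% after removal of a lowess trend, with 113 higher and 108 lower. The floor of 5 left 71 and 101 genes. Alternatives for the counts in both lines were added after seeing the data. The 7 higher genes became 3 with the limit on the brighter array, 4 with the floor, 4 beyond 3 SD and 0 beyond 2 log2 units, and the 11 lower became 7 with the limit of 200, 7 with the floor and 0 beyond 2 log2 units. Of 279 medians of lists under alternatives, 268 moved by less than the robust SD over genes of 0.256 and 11 by more. Of 662 values of named genes, 37 moved by more, 16 of them under the floor, and no called value changed sign. Medians changed sign in 7 lists. That of the osteoblast lineage was clearly negative and went from -0.38 to 0.02 with no signal limit, that of Eph receptors and ephrins went from -0.18 to 0.22 with the limit on the brighter array, and the other lists had medians close to 0, such as matrix proteases, from 0.00 to -0.04 with the mean of probe sets. The signal limit settings change which genes enter a list, and 5 of the 6 kept Eph receptor and ephrin genes were under the limit on both U-2OS arrays. Beyond that, the cause of these moves was not tested. No paired analysis was possible within U-2OS because each condition had 1 array there, and a fit over both lines with the line as a block, which would estimate a mean over U-2OS and KHOS, was not run. With 1 array a side no array could be left out, and a difference of low signals, where 35 higher and 46 lower genes had an array under 5, is the least certain.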

Other observations

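A further pair of genes past 1 log2 unit, chosen after their values were seen and from no list, encode a receptor and its coreceptor. TLR4, the receptor of bacterial endotoxin, had log2 levels of 6.53 in untransfected cells, 4.31 after nonspecific siRNA and 6.04 after CDK11 siRNA, a difference of -2.23. LY96 encodes MD-2, the coreceptor that binds endotoxin beside TLR4, and it read 8.01, 9.49 and 9.61, a difference of 1.48. TLR4 was under the signal limit on each of these U-2OS arrays, while LY96 was above it on each. The partners thus lay on opposite sides in U-2OS, with the TLR4 side resting on low signals. Their KHOS differences, in the same order, were 0.05 and -0.03. These values come from 1 array a side and carry no test.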
